A study of Mus musculus with 18 samples.

Results

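Brown adipose tissue (BAT) burns fatty acids and glucose to make heat. Its adipocytes are packed with mitochondria whose respiratory chain pumps protons out of the matrix, and uncoupling protein 1 (UCP1) lets these protons leak back without ATP being made. The same cells take up, synthesize and store triglyceride, which serves as their fuel. The abundance profile of BAT was read here from 6 RNA-seq libraries, 1 for each of 6 wild-type C57BL/6J male mice (C57BL/6 in the strain label) that were 16 weeks old and ate regular chow. These libraries are 6 of the 18 samples in the series, chosen because their source was labelled as BAT tissue. The RNA came from whole, snap-frozen tissue, although another label of the same samples names BAT adipocytes. Mice are called by the number in their labels (6, 7, 8, 11, 12 and 13). No comparison with another depot was made, so the values below describe levels and the spread between mice, without a test between groups. Because RNA came from whole tissue, fewer cells of a type and less RNA per cell cannot be told apart.

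Each file listed 53445 locus rows (stretches of transcribed sequence, mostly 1 per gene) with their reads and their RPKM, the reads scaled to the length of the row and to the total reads of the library. The totals behind the RPKM ran from 26706786 reads in mouse 8 to 34512470 reads in mouse 6, and 29433 to 30692 rows had at least 1 read. No read was found in any mouse for 16287 rows (30.5%). A mean RPKM of at least 1 was reached by 12952 rows (24.2% of all rows), of at least 10 by 3106 rows (5.81%) and of at least 100 by 349 rows (0.653%). Only 26 rows reached 1000, and these took 54.9% ± 1.59 (SD, n = 6) of the reads summed over rows. The 323 rows from 100 to 1000 took 11.6%, the 2757 rows from 10 to 100 took 17.6%, and the 9846 rows from 1 to 10 took 14.5%. The 31756 rows under 0.1 together took 0.0922%.

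**Figure D1:**
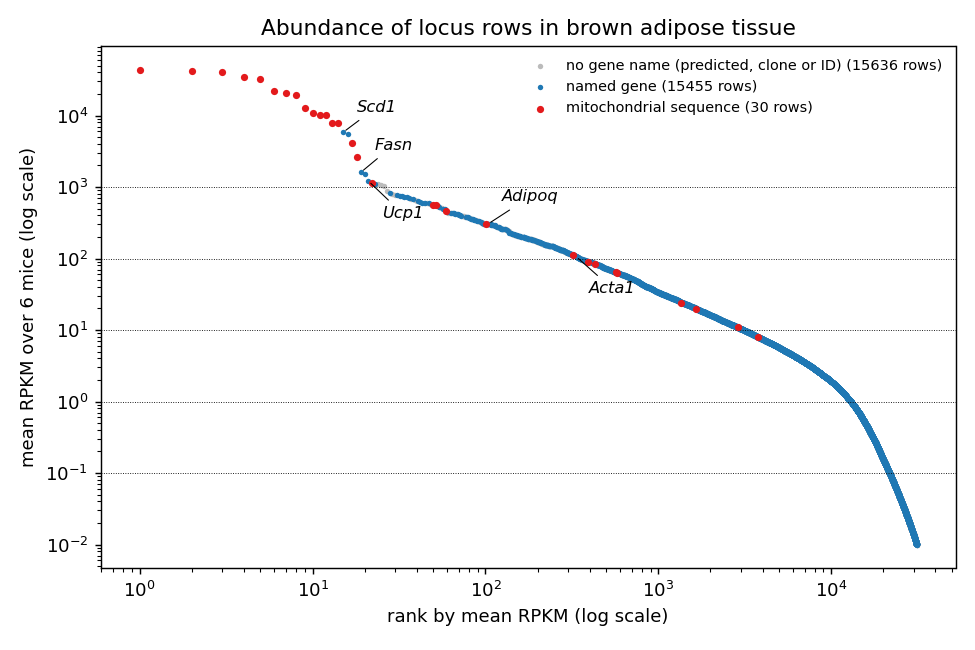
Mean RPKM over the 6 mice (y axis, log scale) against rank (x axis, log scale) for every locus row with a mean RPKM of at least 0.01. Rows of mitochondrial sequence fill most of the top 18 places and the first named nuclear gene is Scd1 at rank 15. Dotted lines are the limits of the abundance classes.

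Transcripts of the mitochondrial genome dominated the profile. Mitochondrial DNA encodes core subunits of the respiratory chain and of ATP synthase as well as the ribosomal RNAs of the organelle. The 10 most abundant rows were all mitochondrial sequence and took 40.9% ± 1.03 (SD, n = 6) of the summed reads. Of the 18 highest rows, 16 were mitochondrial sequence, with Scd1 and Fabp4 as the exceptions. In all, 30 rows matched the mitochondrial genome (14 on the mitochondrial chromosome, MT, and 16 on nuclear chromosomes). They took 48.7% ± 1.30 of the summed reads, from 46.5% in mouse 11 to 50.6% in mouse 13, with a median of 48.8%. Some of these rows overlap, and a read in their overlap was counted in each. Over 22 rows that do not overlap each other, the share was 31.1% ± 1.05 of the total behind the RPKM.

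Many of these reads were counted on nuclear chromosomes rather than on MT. The rows on nuclear chromosomes held 53.8% ± 0.640 (SD, n = 6) of the reads in the 22 rows. The symbols COX2, COX3 and ND4L, which name subunits of cytochrome c oxidase and of complex I, sat on chromosome 1 in mm9, at chr1:24620027-24622404, chr1:24620027-24620810 and chr1:24618374-24619540. The COX3 row lies inside the COX2 row, which is 2314 bases long, so these rows share reads. Like the COX2 row, the ND4L row (1167 bases) may hold more than the gene of its symbol. COX2 was the most abundant row of the table, with 41842 RPKM in the lowest mouse, 43785 at the median and 45387 in the highest. COX3 had a mean of 34634 ± 1154 RPKM and ND4L of 22359 ± 2484 RPKM. In contrast, ND3, which lies on MT inside the stretch that chromosome 1 copies, had 19.9 ± 3.50 RPKM. COX1, most of which lies outside that stretch, had 20625 ± 1365 RPKM on MT.

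The differences between MT and its copy on chromosome 1 are shown because, inside the copied stretch, they are the only places where a read can be told apart. Reads that cross an end of the stretch can differ as well. In the mm9 genome, chr1:24618374-24623027 on the minus strand matches positions 6390 to 11042 of MT with an identity of 99.936%. It differs by 2 substitutions, A6393T and T9461C (the MT base first, positions counted along MT), and by 1 additional A in a run that is 8 bases long on MT and 9 bases long on chromosome 1. The windows below cover T9461C and the run of A, with the differing base or run in capitals.
MT:9431-9491, plus strand: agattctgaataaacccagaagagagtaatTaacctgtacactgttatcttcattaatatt
chr1:24619926-24619986, minus strand: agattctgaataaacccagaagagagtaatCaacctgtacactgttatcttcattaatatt
MT:9791-9858, plus strand: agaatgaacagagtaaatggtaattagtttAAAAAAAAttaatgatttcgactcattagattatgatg
chr1:24619558-24619626, minus strand: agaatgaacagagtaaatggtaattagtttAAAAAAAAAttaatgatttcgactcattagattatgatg
A read inside the copied stretch that covers none of the differing places has the same letters on both chromosomes. The values of COX2, COX3, ND4L and ND3 are therefore uncertain as levels of single genes.

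The remaining rows of mitochondrial sequence followed the same genome. ENSMUSG00000064370 (mt-Cytb, cytochrome b of complex III) had 32179 ± 1454 RPKM and ENSMUSG00000064345 (mt-Nd2, a complex I subunit) had 12871 ± 1909 RPKM. The row ENSMUSG00000064341, named mt-Nd1 but long enough to hold the 16S ribosomal RNA as well, had 10069 ± 576.9 RPKM. Other nuclear copies were weaker, such as a row on chromosome 2 (ENSMUSG00000083563) with 10768 ± 610.3 RPKM, in a stretch that is 97.4% identical to MT. The spread between mice was small for COX2 (a coefficient of variation of 0.0296) and larger for ND5 (0.172) and ND6 (0.172), whose rows overlap on opposite strands and share reads.

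Outside mitochondrial sequence, the profile was led by lipid synthesis and storage. Over the reads in those rows, the 10 most abundant rows took 12.6% ± 1.43 (SD, n = 6), the 100 most abundant 22.8% ± 1.50 and the 1000 most abundant 50.3% ± 1.96. The 6 named genes over 1000 RPKM were Scd1, Fabp4, Fasn, Gpd1, Ucp1 and Cox8b. Scd1, the desaturase that makes monounsaturated fatty acids, had 5109 RPKM in the lowest mouse, 5786 at the median and 6441 in the highest, and alone took 3.64% of the summed reads. Fabp4, the fatty acid binding protein of adipocytes, had 4903, 5473 and 6118 RPKM in the same order. Fasn, fatty acid synthase, ranged from 1076 RPKM in mouse 11 to 2112 RPKM in mouse 6 with a median of 1620. Gpd1, which makes the glycerol 3-phosphate backbone of triglyceride, ranged from 1264 to 1824 RPKM. The ranges of Scd1 and Fabp4 overlapped, and in mouse 7 Scd1 (5109 RPKM) was below Fabp4 (5329 RPKM). Every mouse had more of both than of any other named nuclear gene.

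Ucp1 and Cox8b came next among the named nuclear genes. Ucp1 ranged from 968.9 RPKM in mouse 7 to 1509 RPKM in mouse 8, with a median of 1196. Cox8b, the cytochrome c oxidase subunit of heart, muscle and brown fat, ranged from 970.1 RPKM in mouse 12 to 1344 RPKM in mouse 11. The ranges of Ucp1 and Cox8b overlapped, and those of Gpd1 and Ucp1 did as well. Ranks 7 to 12 held the respiratory chain subunits Cox6a1 (836.5 ± 142.1 RPKM), Cox4i1 (755.3 ± 119.5) and Cox7c (721.4 ± 63.1), Atp5b (723.1 ± 32.6), the catalytic subunit of ATP synthase, Acaa2 (754.4 ± 65.9), the last enzyme of mitochondrial fatty acid oxidation, and Cidea (711.4 ± 67.8), a lipid droplet protein typical of brown fat. After these came Thrsp, a regulator of lipogenesis, Pck1, which feeds glyceroneogenesis, Car3, the carbonic anhydrase of adipocytes and muscle, and the glycolytic enzyme Aldoa, with means from 606.6 to 670.4 RPKM.

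**Figure D2:**
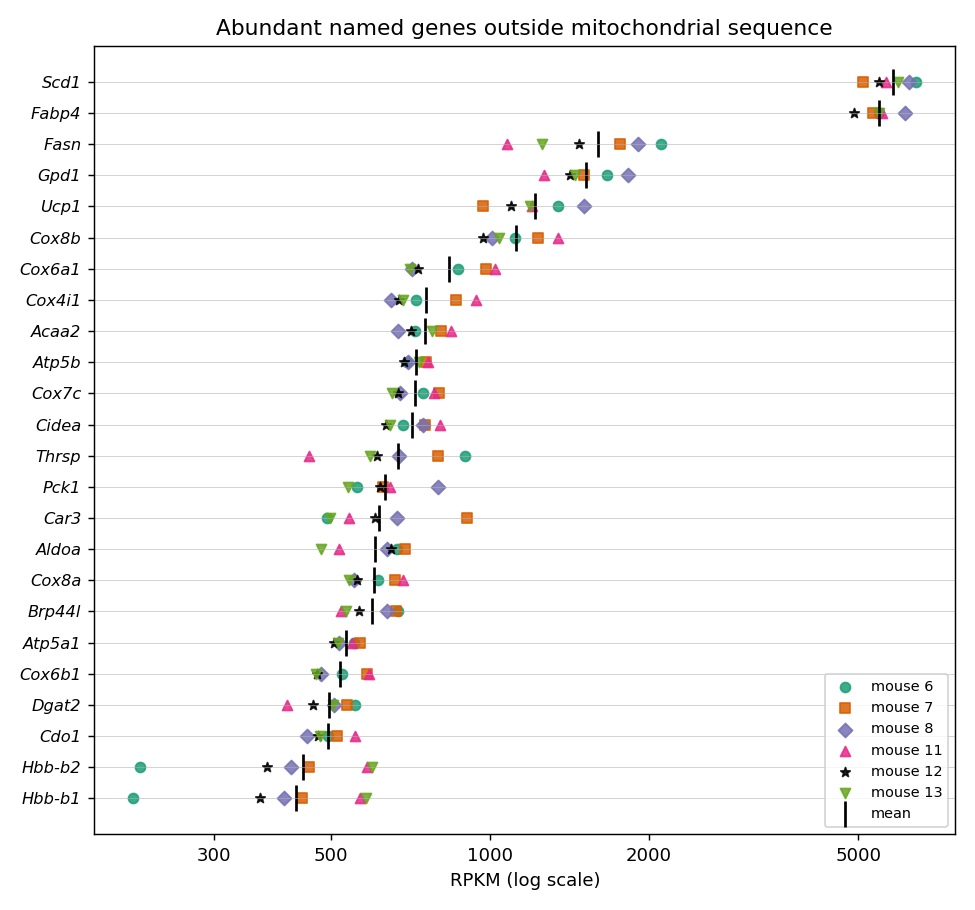
RPKM (x axis, log scale) in each of the 6 mice for 24 abundant named genes outside mitochondrial sequence, ordered by mean (vertical bars). Scd1 and Fabp4 stand above all others, Fasn spans 1076 to 2112 RPKM, and the haemoglobin rows Hbb-b2 and Hbb-b1 have their lowest values, 216.9 and 210.6 RPKM, in mouse 6.

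A name at high abundance did not always mark the annotated gene. Of 194 named rows at 100 RPKM or more outside mitochondrial sequence, 173 overlapped the gene of that symbol in the mm9 annotation, 12 lay elsewhere and 9 had a symbol that the annotation does not hold. The Cox7c row lay at chr11:75413151-75413547 and had 1 exon, while the row at the annotated Cox7c gene on chromosome 13 had 3 exons and 14.1 ± 1.38 RPKM. Likewise, Brp44l, a subunit of the mitochondrial pyruvate carrier, had 598.6 ± 66.2 RPKM in a row of 1 exon on chromosome 12 and 25.5 ± 3.0 RPKM at the gene on chromosome 17. The ribosomal protein rows Rplp2, Rpl28, Rpl37a, Rps19 and Rpl31 were of the same kind. Reads of intron-free copies and of their parent genes cannot be told apart where the sequences are nearly identical, so these levels are uncertain. Beyond named genes, 133 rows over 100 RPKM carried predicted, clone or identifier names. Of these, 69 overlapped a named row, 61 were copies of a coding transcript and 3 were neither. The highest of the copies, Gm5506, had 1111 ± 167.2 RPKM and is 99.5% identical to Eno1, the glycolytic enolase, whose own row had 59.6 ± 7.84 RPKM. Gapdh, a glycolytic enzyme that is often used as a reference, had 2.42 ± 0.361 RPKM at its row, while its copy Gm10481, which is 99.8% identical, had a mean of 391.5 RPKM.

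Functions were spread unevenly over the abundance classes. Of 188 named rows from 100 to 1000 RPKM, 85 (45.2%) belonged to the lists for the respiratory chain and ATP synthase, fatty acid oxidation, the tricarboxylic acid cycle, lipid uptake and storage, or fatty acid synthesis. In the class from 10 to 100 RPKM these lists made up 67 of 1873 rows (3.58%), and in the class from 1 to 10 RPKM 14 of 7231 rows (0.194%). The lists were drawn up with the character of BAT in mind, so these shares describe the lists and are not independent evidence. Shares over all rows, given below beside some lists, include 31601 unnamed or predicted loci. Of these loci 10.9% were at 1 RPKM or more and 3.02% at 10 or more. The shares over all rows are therefore a low background for lists of named genes.

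Energy metabolism filled the upper classes. The tricarboxylic acid cycle oxidizes acetyl-CoA, and its list also held pyruvate dehydrogenase. All 18 measured genes of this list were at 10 RPKM or more (5.81% of all rows), and 12 were at 100 or more (0.653% of all rows). Pdhx, a component of pyruvate dehydrogenase, was the lowest with 17.3 ± 1.46 RPKM (SD, n = 6). Of 88 measured nuclear genes for the respiratory chain and ATP synthase, 76 were at 10 or more and 45 at 100 or more. Their median was 106.6 RPKM, and the lowest was Cox8c, with no read in any mouse. Cycs, cytochrome c, had 4.48 ± 0.550 RPKM at its row, while its copies Gm10053 (99.8% identical) and ENSMUSG00000062813 (97.3% identical) had means of 503.8 and 365.2 RPKM, so its level is uncertain. Of 22 genes for fatty acid oxidation, 21 were at 10 or more, led by Acaa2, Acadl (427.4 ± 19.3 RPKM) and Acadvl (412.5 ± 19.6), dehydrogenases of long and very long acyl chains. The carnitine palmitoyltransferases, which admit fatty acids into mitochondria, differed in level, with 163.5 ± 12.9 RPKM for Cpt1b, the form of muscle and brown fat, and 1.54 ± 0.320 RPKM for Cpt1a, the form of liver. Their ranges over the 6 mice (144.5 to 181.9 and 1.14 to 1.95 RPKM) did not overlap.

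Lipid storage was represented as fully. All 27 measured genes for fatty acid uptake and lipid storage were at 10 RPKM or more, and 15 were at 100 or more. The lipases Pnpla2 (428.0 ± 37.5 RPKM) and Lipe (165.1 ± 11.6) and the droplet proteins Cidec (255.8 ± 51.2) and Plin1 (230.2 ± 15.9) were among them, and the lowest was Gpihbp1 (15.5 ± 6.81), which anchors lipoprotein lipase to capillaries. The 20 genes for fatty acid synthesis took 6.06% ± 0.774 of the summed reads, a larger share than the 1.96% ± 0.133 of the nuclear respiratory chain genes. Scd1 (mean 5806 RPKM) and Fasn (1600) gave most of the mean summed RPKM of 9381 for fatty acid synthesis. By summed RPKM, which sets transcript length aside, the order of these lists turned around, with 1.75% for fatty acid synthesis and 2.72% for the respiratory chain. Fatty acid synthesis varied more between mice than the tricarboxylic acid cycle, with coefficients of variation of summed RPKM of 0.124 and 0.0356. Its summed RPKM was 7975 in mouse 11 and 11227 in mouse 6, and Acly, which makes cytosolic acetyl-CoA, ranged from 148.9 RPKM in mouse 11 to 437.4 RPKM in mouse 6. Slc25a1, the citrate carrier, and Me1, which makes NADPH, were lowest in mouse 11 as well, at 126.4 and 64.7 RPKM.

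Genes that mark brown adipocytes covered a wide range of abundance. Of 30 measured members of the brown fat list, 22 were at 10 RPKM or more, 7 at 100 or more, and 3 under 1. Ucp1, Cox8b, Cidea and Cox7a1 (329.7 ± 23.5 RPKM) were abundant, and Adrb3, the beta-3 adrenergic receptor, had 71.3 ± 17.0 RPKM. The regulators were lower, with 3.10 ± 0.399 RPKM for Prdm16, a transcriptional coregulator of brown fat identity, and 0.862 ± 0.240 RPKM for Zic1. Ppargc1a, a coactivator of mitochondrial biogenesis, ranged from 4.34 RPKM in mouse 7 to 19.4 RPKM in mouse 11, with a median of 6.18. Among markers of white adipocytes, the hormone genes Lep (11.4 ± 5.15 RPKM) and Retn (6.68 ± 3.16) were above Prdm16 and Zic1, Hoxc8 had 1.58 ± 0.291 RPKM, and Hoxc9 had 1 read over all mice. Tcf21 had 0 reads in the 6 libraries, which allows up to 3 reads a library, or 0.0367 to 0.0475 RPKM from the deepest to the shallowest. All 8 brown adipocyte markers had reads in every mouse, as did 3 of the 5 white adipocyte markers. These floors cover counting error only.

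The protein-making and quality control machinery sat mostly between 10 and 100 RPKM. All 76 measured mitochondrial ribosomal protein genes were at 1 or more (24.2% of all rows), 48 were at 10 or more and none reached 100. Of 48 proteasome genes, 27 were at 10 or more and none at 100. Of 80 cytosolic ribosomal protein genes, 61 were at 10 or more. Each was counted by its most abundant row. Whether that row lay at the annotated gene was checked only at 100 RPKM or more, and 53 of the 61 were below that. Rows found outside the annotated gene included those of Rps19, Rpl31, Rpl37a, Rplp2 and Rpl28. The rows at the genes Rps19, Rpl31 and Rpl37a had means of 4.08, 0.734 and 7.70 RPKM, so the count is uncertain. Hsp90ab1 (225.2 ± 53.3 RPKM), a cytosolic chaperone, and Hspa9 (213.7 ± 9.66), the mitochondrial HSP70, led the heat shock list. Among transcription factors of adipocytes, Cebpa had 168.0 ± 31.9 RPKM and Pparg, the regulator of adipocyte differentiation, 73.7 ± 7.95 RPKM.

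**Figure D3:**
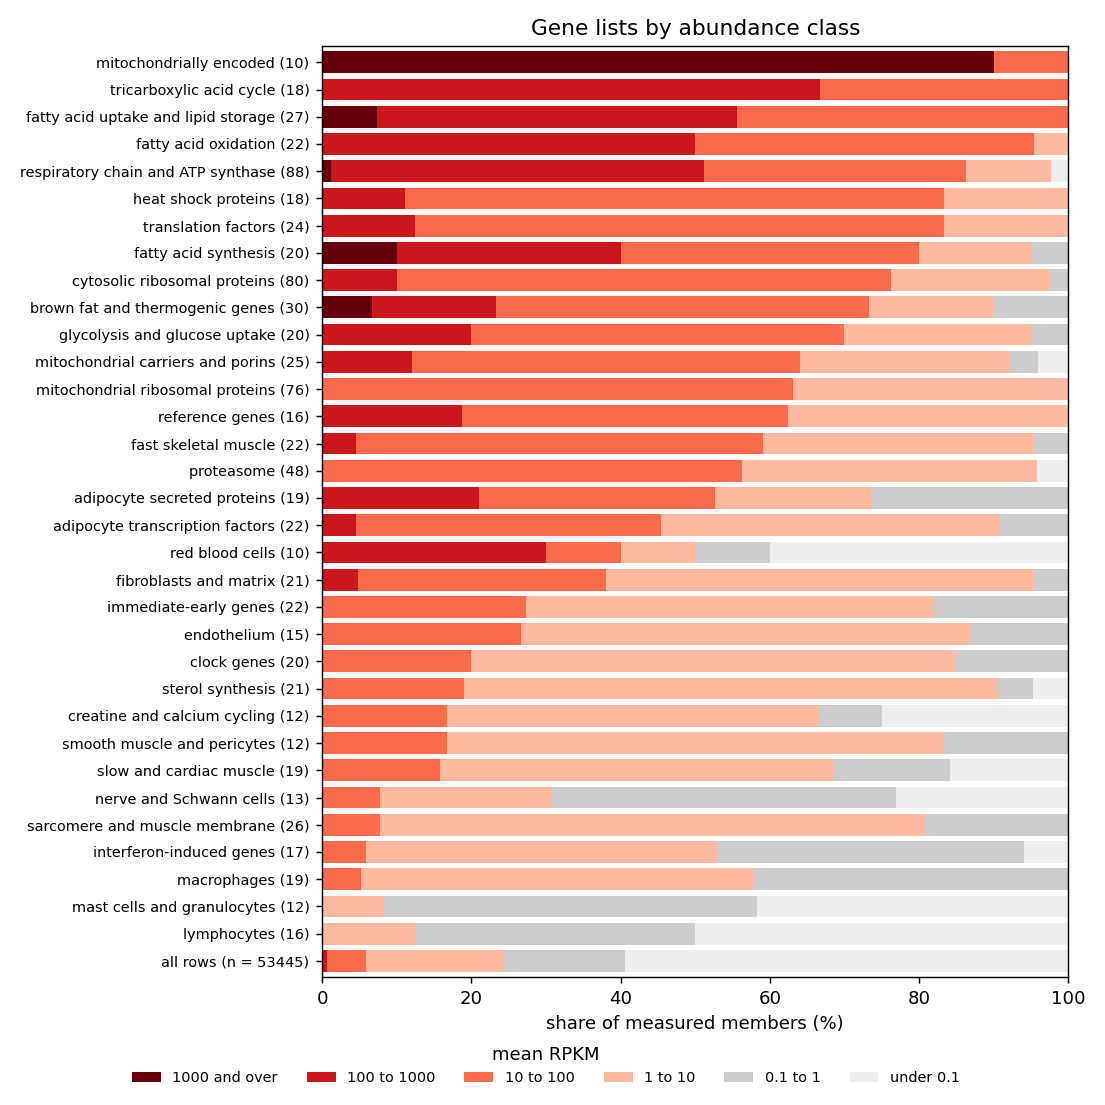
Share of the measured members (x axis, percent) of each of 33 gene lists that fell into each class of mean RPKM over the 6 mice, with the number of members in parentheses and all 53445 rows at the bottom. All members of the tricarboxylic acid cycle and lipid storage lists are at 10 RPKM or more, while no lymphocyte gene is.

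Genes of other cell types were mostly under 100 RPKM, apart from haemoglobin genes, Gsn and the muscle gene Acta1. Of 10 genes of red blood cells, 3 were at 100 RPKM or more, namely Hbb-b2, Hbb-b1 and Hba-a1, which encode haemoglobin chains. Hba-a1 had 192.9 RPKM in mouse 6, 414.5 at the median and 591.6 in mouse 13. The Hbb-b1 and Hbb-b2 rows cover the same stretch and share their reads. For macrophages, 1 of 19 genes was at 10 or more, Lyz2 (24.3 ± 9.78 RPKM), which encodes lysozyme. Of 15 endothelial genes 4 were at 10 or more, led by Cdh5 (30.2 ± 9.35), the cadherin of endothelial junctions. Of 21 fibroblast and matrix genes 8 were at 10 or more, led by Gsn (110.7 ± 23.8) and Sparc (84.1 ± 7.82). No gene of the lymphocyte list (16 measured) and none of the mast cell and granulocyte list (12 measured) reached 10 RPKM. Of 1265 olfactory receptor rows, 1191 had no read in any mouse.

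Most abundant genes varied little between mice. The spread was measured as the coefficient of variation of RPKM beyond counting, which takes the variance expected from counting reads off its square. Over the 3106 rows at 10 RPKM or more its median was 0.104, and 1456 rows (46.9%) were under 0.1. Among the steadiest rows over 100 RPKM were an enzyme of the tricarboxylic acid cycle and a complex III subunit, with 0.0223 for Idh3b (151.3 to 162.4 RPKM) and 0.0277 for Uqcrb (346.1 to 373.6 RPKM). A row was called variable where the coefficient was 0.5 or more, which held for 58 of the 3106 rows (1.87%). Just inside the limit were Obfc2a (0.510) and Slc4a4 (0.511), and just outside were ENSMUSG00000059814 (0.497), a copy of Hspa8, and Dusp1 (0.496). Among the 349 rows over 100 RPKM, 4 (1.15%) were called, namely Acta1, Cfd, Rn18s and LOC790964, which overlaps Rn18s.

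**Figure D4:**
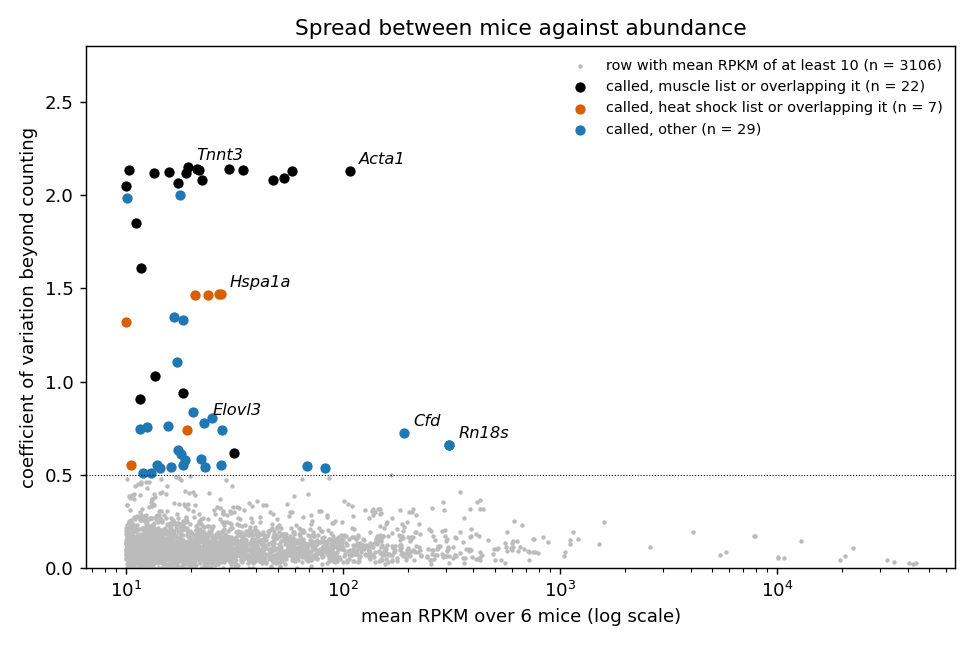
Coefficient of variation of RPKM beyond counting over the 6 mice (y axis) against mean RPKM (x axis, log scale) for the 3106 rows at 10 RPKM or more, with the limit of 0.5 dotted. Called rows are coloured by group. Most of the muscle rows form a band near 2.1 that reaches from 10 RPKM to Acta1 at 108.1 RPKM, and all of them are highest in mouse 12.

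Skeletal muscle genes made up the largest group of variable rows. In the 3 lists for striated muscle, 18 of 67 measured genes had a mean of 10 RPKM or more, and 17 of these were called variable, all of them highest in mouse 12. The remaining gene, Tpm3, had a coefficient of 0.309 and its row lay on chromosome 14, whereas the annotated gene is on chromosome 3. Tnnt3, the fast troponin T, had the highest coefficient of all (2.15), with 103.5 RPKM in mouse 12, 8.16 in mouse 8, 3.17 in mouse 6, 0.548 in mouse 11, 0.0550 in mouse 13 and 0.0357 in mouse 7. Ckm, the creatine kinase of muscle, had 310.3 RPKM in mouse 12, 26.8 in mouse 8, 10.5 in mouse 6, 1.67 in mouse 11, 0.167 in mouse 13 and 0.0206 in mouse 7, where the value rests on 1 read. Mouse 12 stood apart in both genes, and mice 8 and 6 followed in that order. Myh4, the myosin heavy chain of the fastest fibres, had 249.6 RPKM in mouse 12 against a median of 5.28. Mb, myoglobin, had 117.1 RPKM in mouse 12 against a median of 3.17. Over all 67 genes, 65 were highest in mouse 12, and in 58 of those 65 mouse 8 came second.

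The muscle genes passed the limit of 10 RPKM through mouse 12. Of the 17 called, 14 had a median under 10, and without mouse 12 only 4 of the 67 genes kept a mean of 10 or more. Without mouse 12, 43 rows were called in place of 58, and 31 rows were shared. Acta1, skeletal actin, was the single gene of the muscle lists among them. Another 5 called rows overlap a called muscle gene and share its reads, namely Ube2c (over Tnnc2), Rabep2 (over Atp2a1), AK042040 (over Mylpf), and A930016O22Rik and LOC100503495 (over Ckm). Further rows highest in mouse 12 were Tpm2, tropomyosin 2, Pygm, the muscle glycogen phosphorylase, and the small heat shock genes Hspb6 (37.0 RPKM against a median of 4.48) and Cryab (47.8 against 13.7), which muscle expresses as well. In total 28 of the 58 called rows (48.3%) were highest in mouse 12, against 198 of all 3106 rows (6.37%).

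Summed over the list, the 22 fast muscle genes had 2515 RPKM in mouse 12, 239.9 in mouse 8, 102.9 in mouse 6, 37.9 in mouse 11, 24.3 in mouse 13 and 21.6 in mouse 7. Mouse 12 was 35.7 times the median. The brown fat list was lowest in mouse 12, but its values, from 4168 in mouse 12 to 5189 in mouse 11, spanned a small range. Mouse 12 was also the lowest for the respiratory chain, fatty acid oxidation and lipid storage lists. For the fatty acid synthesis and tricarboxylic acid cycle lists the lowest was mouse 11. Correlations of the fast muscle list with 6 other lists over the 6 mice gave no value that passed the limit of 0.05. With the brown fat list, Pearson's r was -0.69 (exact permutation p = 0.25, two-sided, adjusted p = 0.6 over 12 values) and Spearman's rho was -0.029 (exact permutation p = 1, adjusted p = 1). Without mice 8 and 12, the farthest from the median of the muscle list, r was 0.24. Without mouse 8 alone r was -0.69, and without mouse 12 alone it was 0.195, so the negative r rested on mouse 12. The lowest adjusted p over the 12 values was 0.6. What part muscle tissue had in any other difference of mouse 12 was not tested.

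**Figure D5:**
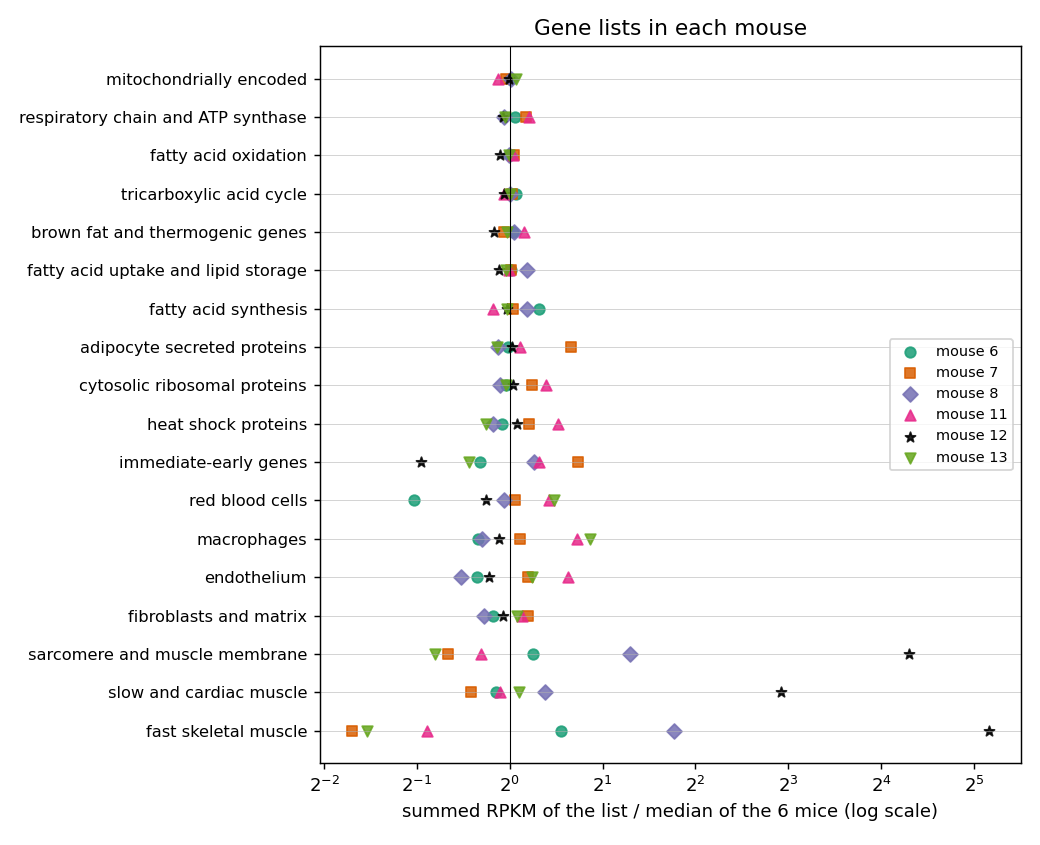
Summed RPKM of 18 gene lists in each mouse divided by the median of the 6 mice (x axis, log scale). The fast muscle list spans from 21.6 to 2515 RPKM with mouse 12 far to the right, while lists of energy metabolism lie close to 1 in every mouse.

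A further group of variable rows was highest in mouse 11. It held 20 of the 58 called rows (34.5%), but mouse 11 was also the highest in 1454 of all 3106 rows (46.8%), so this share was not above the background. Hspa1a and Hspa1b encode the inducible HSP70 chaperone. The Hspa1a row (chr17:35093976-35096183) lies inside the Hspa1b row (chr17:35093374-35096183), so the rows share reads and are not independent measures. The promoters of these genes, given below in another genome build, lie at separate places that do not overlap. The rows therefore cannot both lie at the gene of their symbol, and the values below belong to rows. Hspa1a had 92.4 RPKM in mouse 11 and 63.3 in mouse 7, against 3.11, 2.44, 1.53 and 1.41 in mice 12, 6, 8 and 13. Hspa1b had 80.2 and 55.3 RPKM in mice 11 and 7, against 2.77 or less in the other 4. Mice 7 and 11 thus stood apart from the rest in the reads of this pair, and the levels of the single genes are uncertain. Dnajb1, an HSP40 cochaperone, was highest in the same mice at 20.3 RPKM (mouse 7) and 15.2 RPKM (mouse 11), against 6.17 to 8.36.

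The promoters of the HSP70 pair are given because their rows, which share reads, were high in mice 7 and 11. They come from RefSeq (GRCm38.p6), span 250 bases before to 50 after the start, and agree at 296 of 300 positions. Each holds the heat shock element core GAANNTTC (capitals), searched on both strands, which 7.86% of 32851 promoters hold. The same letters were in a promoter of Hspb6, which was highest in mouse 12, and in neither promoter of Dnajb1. They were also in a promoter of 2 of 14 called muscle genes, Fhl1 and Myh2.
Hspa1a, chr17:34972107-34972406, minus strand: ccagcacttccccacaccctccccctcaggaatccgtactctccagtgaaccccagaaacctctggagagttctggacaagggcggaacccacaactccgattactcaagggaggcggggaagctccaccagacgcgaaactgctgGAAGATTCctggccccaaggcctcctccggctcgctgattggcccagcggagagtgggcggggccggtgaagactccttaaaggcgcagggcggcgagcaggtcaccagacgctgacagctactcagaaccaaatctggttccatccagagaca
Hspa1b, chr17:34959189-34959488, minus strand: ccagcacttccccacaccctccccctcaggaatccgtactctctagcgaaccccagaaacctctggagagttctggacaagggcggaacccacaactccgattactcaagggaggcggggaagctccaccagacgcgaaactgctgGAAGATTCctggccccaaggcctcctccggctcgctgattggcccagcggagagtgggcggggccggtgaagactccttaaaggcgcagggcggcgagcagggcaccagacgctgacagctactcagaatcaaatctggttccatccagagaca
Of the 14 called muscle genes with a promoter in the same set, 5 held TATAAA and 13 the E-box CANNTG in at least 1 promoter. Over all single promoters, 13.6% hold TATAAA on either strand and 72.3% hold CANNTG. Genes with several promoters have more places to match, so these counts and shares are not like for like. Acta1 is shown as an example, with TATAAA in capitals.
Acta1, chr8:123894726-123895025, minus strand: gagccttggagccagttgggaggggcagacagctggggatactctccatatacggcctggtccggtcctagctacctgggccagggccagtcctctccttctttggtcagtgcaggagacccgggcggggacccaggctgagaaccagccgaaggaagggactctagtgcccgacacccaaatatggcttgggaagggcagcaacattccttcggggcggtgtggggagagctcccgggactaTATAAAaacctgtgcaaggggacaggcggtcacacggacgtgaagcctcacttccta
A match of these letters is a description and not a site of binding.

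Other called rows were led by different mice. Cdkn1a, a cell cycle inhibitor, had 68.0 RPKM in mouse 11 against 4.49 to 11.6 in the rest, and Gmpr, a GMP reductase, had 54.6 against 7.58 to 16.3. Rn18s, the 18S ribosomal RNA, had 709.0 RPKM in mouse 11, 248.6 at the median and 171.3 in mouse 8. Dio2, the deiodinase that activates thyroid hormone in BAT, had 30.5 RPKM in mouse 11 against 4.84 to 12.8 in the others. Elovl3, a fatty acid elongase of brown fat, followed another order, with 51.4 RPKM in mouse 8, 36.1 in mouse 6, 23.2 in mouse 7, 10.8 in mouse 13, 8.24 in mouse 12 and 7.27 in mouse 11. Dio2 and Elovl3 were the 2 members of the brown fat list called variable, and their highest mice differed. Cfd, which encodes adipsin, a protease secreted by adipocytes, had 469.8 RPKM in mouse 7, 155.0 at the median and 88.4 in mouse 13. Nr4a1, an immediate-early nuclear receptor, had 52.4 RPKM in mouse 7 and 2.06 in mouse 13.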

How the data were processed

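RNA-seq was run by the authors on RNA of snap-frozen BAT, and reads were mapped to mm9. The submitters' processing notes name cutadapt 1.16 and HISAT2 2.1.0. The deposited files give, for each merged locus row, a read count and the RPKM computed by the authors. How reads matching several places were handled is not given in the sources used here. Rows on opposite strands of one stretch, such as ND5 and ND6, held nearly equal counts, so strand was not used, and reads in overlapping rows were counted in each row, so the summed reads were 1.10 to 1.12 times the total behind the RPKM.

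Of 18 samples, the 6 labelled BAT tissue were used. Rows were ranked by mean RPKM and placed in classes by powers of 10 (limits 0.1, 1, 10, 100 and 1000). Rows were called mitochondrial sequence where at least 50% of the row lay in an alignment of at least 200 bp and 90% identity to MT (BLAST against mm9). Of 6419 rows named by an Ensembl identifier, 6406 were matched to a symbol. Genes were grouped in 33 lists, with 1 row for each symbol, the most abundant one. For some symbols that row lay outside the annotated gene, so counts of list members by class are uncertain there. The place of rows was checked as a set only for named rows at 100 RPKM or more. The spread was the coefficient of variation of RPKM with 1 / mean reads taken off its square, and rows with a mean RPKM of at least 10 were called at 0.5. On simulated counts for 3106 rows, the call was made in 0 of 2906 rows with a coefficient of 0.1, 77 of 100 with 0.7 and 99 of 100 with 1.2. Correlations used exact permutation tests with Benjamini-Hochberg adjustment. Named genes were the 25 most abundant rows, the 3 highest and the lowest member of each list, the 20 most variable rows over 10 RPKM, the 10 most and 5 least variable rows over 100 RPKM, the members of the muscle lists over 10 RPKM and the markers of adipocytes. Under this rule rows without a gene symbol were counted and not named. The 40 most abundant named genes outside mitochondrial sequence, the rows without a symbol, and the other genes named were added after their values were seen. The values of 1 gene are not reported here. Members and lists were chosen with earlier results of these data known. Alternatives used edgeR 4.0.16 (TMM factors and tagwise dispersions) and DESeq2 1.42.0 (size factors). Analyses used Python 3.11.15 and R 4.3.3. Floors cover counting error only, and ± values are the SD over the 6 mice.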

Additional observations from a re-analysis of the deposited data

Results flagged for a closer look

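For each of 110 genes or rows named above (copies of Cycs and Gapdh left out) and 33 gene lists, the gap between the highest or lowest mouse and its nearest neighbour was divided by the whole range of the 6 mice. It passed Dixon's limit for 6 samples in 36 of them, of which 23 stood apart in mouse 12. Chance alone would pass this limit in about 5% of groups, and the genes were partly named for their spread, so the number of such genes is a description.

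In mouse 12 the fast skeletal muscle list (2515 RPKM summed), the slow and cardiac muscle list (381.1), the sarcomere and muscle membrane list (384.4) and the creatine and calcium cycling list (333.4) lay far above the other mice. Atp2a1, which is also in the fast muscle list, gave 281.6 RPKM of the creatine and calcium cycling sum. The same held for the muscle genes Acta1 (576.5 RPKM), Ckm (310.3), Atp2a1 (281.6), Myh4 (249.6), Tnnc2 (185.8), Mb (117.1), Tnnt3 (103.5), Mylpf (100.1), Tpm2 (90.2), Fhl1 (69.0), Myh2 (51.8) and Pygm (50.9). It also held for the rows that overlap such genes, LOC100503495 (116.0 RPKM), Ube2c (84.5), AK042040 (71.9), A930016O22Rik (55.5) and Rabep2 (52.9), and for Cryab (47.8) and Hspb6 (37.0).

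In mouse 11 the outlying values were Rn18s (709.0 RPKM) with LOC790964 (705.9), ENSMUSG00000059814 (326.6), Cdkn1a (68.0), Gmpr (54.6), Dio2 (30.5), Gpihbp1 (28.3) and Ppargc1a (19.4). In mouse 7 they were Cfd (469.8 RPKM), Gsn (157.8), the list of adipocyte secreted proteins (1536 summed) and the list of interferon-induced genes (87.0 summed). Cfd is a member of the list of adipocyte secreted proteins and gave 469.8 RPKM of its sum. The value of Hoxc9 in mouse 7 (0.0134 RPKM) rests on 1 read.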

How the results depend on the processing

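The shares of reads depended most on the treatment of mitochondrial sequence. The 10, 100 and 1000 most abundant rows took 45.1%, 62.3% and 77.5% when ranked by reads, 45.3%, 65.8% and 82.3% of the total behind the RPKM, 44.3%, 52.7% and 69.98% without rows on MT, 52.2%, 70.9% and 85.8% of summed RPKM, and 12.6%, 22.8% and 50.3% without mitochondrial sequence (an alternative chosen after seeing the data). As shares of summed RPKM, without MT rows and without mitochondrial sequence, the brown fat list took 0.872%, 0.922% and 1.53%, the respiratory chain list 2.72%, 2.30% and 3.83%, and fatty acid synthesis 1.75%, 7.10% and 11.8%. Lipid storage took 2.42% without MT rows and 4.02% without mitochondrial sequence. The mitochondrially encoded list took 35.9% of summed RPKM and 16.3% without MT rows. Scaled to TPM, 52 rows reached 1000, 637 lay from 100 to 1000 and 4520 from 10 to 100. Variable rows numbered 35 by edgeR's tagwise dispersion, 319 with a minimum mean of 1 RPKM and 27 with a minimum median of 10 RPKM, and 43 to 65 with 1 mouse left out. The correlation of the fast muscle list with the brown fat list turned positive without mice 8 and 12 (r = 0.240, rho = 0.80) and without mouse 12 (r = 0.195, rho = 0.70). On log2 scales rho was 0.0857, while r stayed negative (-0.198 with a pseudocount of 0.1 and -0.364 with 1). With fatty acid synthesis, r turned positive on log2 scales (0.144 with a pseudocount of 0.1 and 0.131 with 1), without mice 8 and 12 (0.843) and without mouse 12 (0.593). With 1 mouse left out in turn, r with the brown fat list ran from -0.80 to 0.195 and rho from -0.30 to 0.70, and r with fatty acid synthesis from -0.41 to 0.593. Beyond the effect of removing rows or mice, the cause was not tested. No paired analysis was possible because all 6 samples belong to 1 group. Reads shared by near-identical sequences limit the levels of single rows.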
